A study of Rattus norvegicus with 4 samples.

Results

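The ligands and receptors of the tumour necrosis factor (TNF) superfamily, together with TRAF adaptor proteins that carry their signals, were examined in the brains of rats after a bleeding into the brain (intracerebral hemorrhage). Members were taken by gene symbol: symbols starting with Tnfsf or Tnfrsf and a digit, the family genes named otherwise (Ltbr, Fas, Faslg, Cd40, Cd40lg, Cd27, Cd70, Eda and Edar), and Traf1, Traf2, Traf3, Traf5 and Traf6. This gave 42 of the 17853 genes of the deposited table, namely 14 ligands, 23 receptors and 5 adaptors. Tnf, Lta and Ltb, which the same choice would name, were not analysed here. Ipsilateral tissue, from the side of the bleeding, and contralateral tissue, from the opposite side, came from rats aged 13 months, called adult, and 21 months, called old. Each of these 4 groups was 1 library of polyadenylated RNA, so that the values carry no replicate error. The protocols state that RNA was pooled over animals, but not whether this was done per library. All 4 groups came from animals with a hemorrhage, and uninjured animals were not analysed here. The strain, the sex, the way the hemorrhage was made and the time since it are not given in the labels.

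TNF superfamily ligands are mostly membrane-bound trimers that can be cut from the cell surface, and their receptors pass signals on through TRAF proteins or through death domains. TRAF proteins lead to NF-kB and stress kinase signalling, whereas death domains can recruit caspases and start cell death. In injured brain the family is best known from TNF and its receptors on microglia, astrocytes, endothelium and infiltrating leukocytes. Several other pairs, such as CD40 with its ligand and BAFF with its receptors, are best known from lymphocytes and antigen-presenting cells.

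Values are RPKM, reads scaled to gene length and to library size, as deposited by the authors. Ratios are differences of log2(RPKM + 1), which understate the change of low genes, and they were read where a gene averaged 1 RPKM or more across all 4 libraries. This left 12160 genes and 19 members (4 ligands, 12 receptors and 3 adaptors). The RPKM sums lay between 388632 and 402100, the mitochondrial share was 18.5% and 20.6% ipsilaterally and 23.3% and 24.1% contralaterally (13 months before 21 months), and the read depth behind the values is unknown. Neuronal markers were high in all libraries, with the 7 genes of that list summing to 1080 and 1220 RPKM ipsilaterally and to 1510 and 1480 RPKM contralaterally. The tissue label was thus matched by its markers. The 4 pineal markers summed to 16.7 RPKM in the 13 month contralateral library, against 0.27 to 0.71 RPKM in the other libraries. Nearly all of this came from Tph1 (10.4 RPKM) and Gngt1 (6.05 RPKM), whereas Asmt was at 0.28 RPKM and Aanat at 0.01 RPKM there.

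The genes of both TNF receptors, of BAFF, TWEAK and APRIL, and of several death or costimulatory receptors were higher on the bleeding side at both ages. None of the 19 members was lower there by a factor of 2. At 13 months 8 of the 19 members had a side ratio (ipsilateral minus contralateral, log2) of at least 1, against 7.19% of all genes tested, and 0 were at or under -1, against 0.0658%. At 21 months 3 members reached 1, against 5.61% of all genes, and 0 were at or under -1, against 0.288%. Those 3, Tnfrsf1b, Tnfsf13b and Cd40, were past 1 at both ages, against 4.75% of all genes. The median side ratio of the 19 members was 0.96 at 13 months and 0.50 at 21 months, beside 0.01 and 0.09 over all genes tested. In bulk tissue more cells of a type and more RNA per cell cannot be told apart, and markers of macrophages were higher ipsilaterally too, as given with the other cell types further on. Since both sides enter the filter, a gene that is low contralaterally passes more easily when it is high ipsilaterally. Of the 19 members 4 (Tnfsf13b, Tnfrsf1b, Fas and Tnfrsf9) were under 1 RPKM in both contralateral libraries. Cd40 averaged 0.78 RPKM contralaterally. These genes, among them all 3 past 1 at both ages, passed only through the ipsilateral side, so the filter favoured their calls.

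As a summary over both ages, limma was fitted to side with age as an additive term, which treats the ages as repeats of the side comparison. In this fit 10 of the 19 members rose on the ipsilateral side at a Benjamini-Hochberg threshold of 0.05, against 13.3% of all genes tested. No member fell, against 0.814% of all genes. By unadjusted p under 0.05 there were 11 members higher, Traf2 being the additional gene, and 0 lower. The share of all genes by that measure is not given for this fit, so these counts cannot be judged against it. The 10 were 3 ligands and 7 receptors, with 0 of the 3 adaptors tested. The fit has 1 residual degree of freedom, which is the age-by-side difference itself. Beside it stand 19.5 prior degrees of freedom from eBayes, so SE and p-values rest mostly on the variance of all genes tested. With no filter on low values the fit called 0 of 42 members and likewise 0 of all 17853 genes. By unadjusted p under 0.05 in that unfiltered fit, 16 members were higher and 0 lower, against 2641 and 719 of all genes. Restricting genes to a contralateral mean of at least 1 RPKM took out Tnfsf13b, Tnfrsf1b, Cd40, Fas and Tnfrsf9 and left 14 members. Of the 14 members, 5 rose in limma, against 10.9% of all genes under that filter. At 13 months 3 were past 1, against 5.42%, and at 21 months 0 were, against 4.32%.

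**Figure D1:**
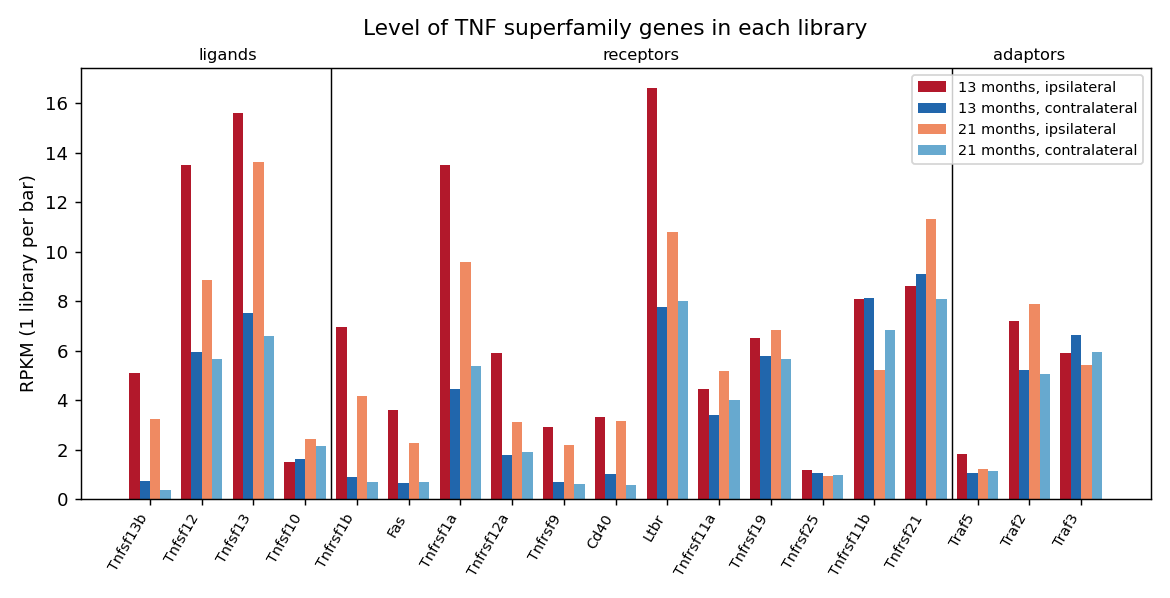
RPKM of the 19 members above the filter, 1 bar per library, in the order 13 months ipsilateral, 13 months contralateral, 21 months ipsilateral and 21 months contralateral, grouped into ligands, receptors and adaptors. The ipsilateral bars of Ltbr (16.6 RPKM), Tnfsf13 (15.6 RPKM), Tnfsf12 and Tnfrsf1a (13.5 RPKM each) at 13 months are the tallest of the plot.

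Among the ligands, Tnfsf13b (ENSRNOG00000014464, chromosome 16), which encodes the B cell survival factor BAFF, had the highest side ratios. Its level was 5.10 RPKM ipsilaterally and 0.74 RPKM contralaterally at 13 months, and 3.24 RPKM ipsilaterally and 0.35 RPKM contralaterally at 21 months. Both ipsilateral libraries lay above both contralateral ones, and the share of all genes separated in this way is not given here. The side ratio was 1.81 at 13 months and 1.65 at 21 months, and the gene rose by 1.73 ± 0.17 (log2, SE, 2 libraries per side, adjusted p = 8.7e-08 in limma).

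Tnfsf13 (ENSRNOG00000014171, chromosome 10) encodes APRIL, a relative of BAFF that shares receptors with it. Its level was 15.6 RPKM ipsilaterally and 7.51 RPKM contralaterally at 13 months, and 13.6 RPKM ipsilaterally and 6.57 RPKM contralaterally at 21 months. The side ratios of 0.96 and 0.94 were the closest between ages among the 10 members that rose, and both lay just under the 2-fold line (adjusted p = 0.00023 in limma). The known receptors of BAFF and APRIL were all low: Tnfrsf13b, which encodes TACI, was at 0.70 and 0.19 RPKM ipsilaterally and at 0.10 and 0.12 RPKM contralaterally (13 months before 21 months). Tnfrsf13c, the gene of the BAFF receptor, was at 0.40 and 0.14 RPKM ipsilaterally and at 0.18 and 0.30 RPKM contralaterally. Tnfrsf17, the gene of BCMA, was at most 0.06 RPKM in any library. Markers of B and plasma cells were low as well, with 5 genes summing to 2.58 and 1.57 RPKM ipsilaterally and to 0.38 and 0.24 RPKM contralaterally, and each of them under 1 RPKM in every library.

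Tnfsf12 (ENSRNOG00000045670, chromosome 10) encodes TWEAK, whose receptor Fn14 is the product of Tnfrsf12a. Tnfsf12 had 13.5 RPKM ipsilaterally and 5.93 RPKM contralaterally at 13 months, and 8.86 RPKM ipsilaterally and 5.66 RPKM contralaterally at 21 months. The contralateral levels of both ages were thus close to each other, and the ipsilateral library was the higher of each pair. Its side ratio was 1.06 at 13 months and 0.57 at 21 months (adjusted p = 0.002 in limma, but 0.066 without the age term). In the RefSeq annotation of the GRCr8 assembly Tnfsf13 and Tnfsf12 are direct neighbours, and how the authors' counting treated reads between them is not given in the sources used here.

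Tnfsf10, the gene of the death ligand TRAIL, did not show a side difference of this size. Its level was 1.49 RPKM ipsilaterally and 1.61 RPKM contralaterally at 13 months, and 2.41 RPKM ipsilaterally and 2.13 RPKM contralaterally at 21 months (log2 change 0.03 ± 0.17, SE, adjusted p = 0.95 in limma). Both libraries of 21 months lay above both of 13 months, with an age ratio (21 minus 13 months) of 0.45 ipsilaterally, the highest of the 19 members, and 0.26 contralaterally. Tnfrsf10b, which encodes a death receptor for TRAIL, was at most 0.31 RPKM in any library.

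Tnfrsf1b had the highest side ratio of all members at 13 months. Tnfrsf1b (ENSRNOG00000016575, chromosome 5) encodes TNF receptor 2, which lacks a death domain and signals through TRAF2. Its level was 6.94 RPKM ipsilaterally and 0.89 RPKM contralaterally at 13 months, and 4.18 RPKM ipsilaterally and 0.71 RPKM contralaterally at 21 months. The contralateral libraries were both under 1 RPKM and the ipsilateral ones both above 4 RPKM. Side ratios were 2.07 and 1.60, and the gene rose by 1.83 ± 0.18 (log2, SE, adjusted p = 6.6e-08 in limma).

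TNF receptor 1, which carries a death domain, is encoded by Tnfrsf1a (ENSRNOG00000031312, chromosome 4). Its level was 13.5 RPKM ipsilaterally and 4.43 RPKM contralaterally at 13 months, and 9.59 RPKM ipsilaterally and 5.38 RPKM contralaterally at 21 months. In every library Tnfrsf1a was above Tnfrsf1b per length. Tnfrsf1a had side ratios of 1.42 and 0.73, both smaller than those of Tnfrsf1b at the same age (adjusted p = 0.00016 in limma for Tnfrsf1a); the difference between both receptor genes was not tested.

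Ltbr (ENSRNOG00000019264, chromosome 4) encodes the lymphotoxin beta receptor and, with Tnfsf13, had the highest mean level of all members, 10.8 RPKM each over the 4 libraries. The RPKM values were 16.6 RPKM ipsilaterally and 7.78 RPKM contralaterally at 13 months, and 10.8 RPKM ipsilaterally and 8.02 RPKM contralaterally at 21 months. The contralateral libraries were close together, and the ipsilateral library of 13 months stood above the other three. Its side ratio lay just under 1 at 13 months and was 0.39 at 21 months (adjusted p = 0.01 in limma, but 0.051 when the values were rescaled without mitochondrially encoded genes and 0.11 without the age term). In the RefSeq annotation 1 protein-coding gene lies between Ltbr and Tnfrsf1a and 1 between Cd27 and Ltbr. Cd27, a costimulatory receptor of T cells, was at most 0.21 RPKM in any library, far below both neighbours.

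Fas (ENSRNOG00000019142, chromosome 1), the gene of the death receptor CD95, was low on the opposite side. The gene had 3.60 RPKM ipsilaterally and 0.64 RPKM contralaterally at 13 months, and 2.27 RPKM ipsilaterally and 0.70 RPKM contralaterally at 21 months. The groups of the sides did not overlap, and the side ratios were 1.49 and 0.94 (adjusted p = 2.5e-05 in limma). Faslg, the gene of its ligand, was at 0.53 RPKM ipsilaterally and 0.08 RPKM contralaterally at 13 months, and at 0.16 RPKM ipsilaterally and 0.20 RPKM contralaterally at 21 months. Only the 13 month pair of Faslg thus had the higher value on the ipsilateral side, at levels too low to be read as a difference.

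Tnfrsf12a (ENSRNOG00000003546, chromosome 10), the gene of the TWEAK receptor Fn14, had the side ratio that differed most between ages among the 19 members. The table gave 5.91 RPKM ipsilaterally and 1.78 RPKM contralaterally at 13 months, and 3.11 RPKM ipsilaterally and 1.90 RPKM contralaterally at 21 months. The contralateral levels were near each other, while the ipsilateral level was higher at 13 than at 21 months. Side ratios were 1.31 and 0.50, a difference of -0.81 (21 minus 13 months), which single libraries cannot test. Over both ages the gene rose by 0.91 ± 0.19 (log2, SE, adjusted p = 0.0014 in limma, but 0.09 without the age term).

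Cd40 (ENSRNOG00000018488, chromosome 3), a costimulatory receptor of antigen-presenting cells and microglia, was the 1 gene of the 10 that rose whose side ratio was larger at 21 months. Its level was 3.31 RPKM ipsilaterally and 1.0 RPKM contralaterally at 13 months, and 3.14 RPKM ipsilaterally and 0.56 RPKM contralaterally at 21 months. The ipsilateral values were alike at both ages and the contralateral one was lower at 21 months. Side ratios were 1.11 and 1.41 (adjusted p = 9.4e-06 in limma). Cd40lg, the gene of its ligand on activated T cells, was at most 0.11 RPKM in any library.

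Tnfrsf9 (ENSRNOG00000036942, chromosome 5) encodes 4-1BB, a costimulatory receptor of T and NK cells that myeloid cells can also carry. It had 2.91 RPKM ipsilaterally and 0.70 RPKM contralaterally at 13 months, and 2.18 RPKM ipsilaterally and 0.60 RPKM contralaterally at 21 months. Both ipsilateral values exceeded both contralateral ones, with side ratios of 1.20 and 0.99 (adjusted p = 4.9e-05 in limma). The gene of its ligand, Tnfsf9, was at 0.56 and 0.60 RPKM ipsilaterally and at 0.32 and 0.13 RPKM contralaterally (13 months before 21 months).

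**Figure D2:**
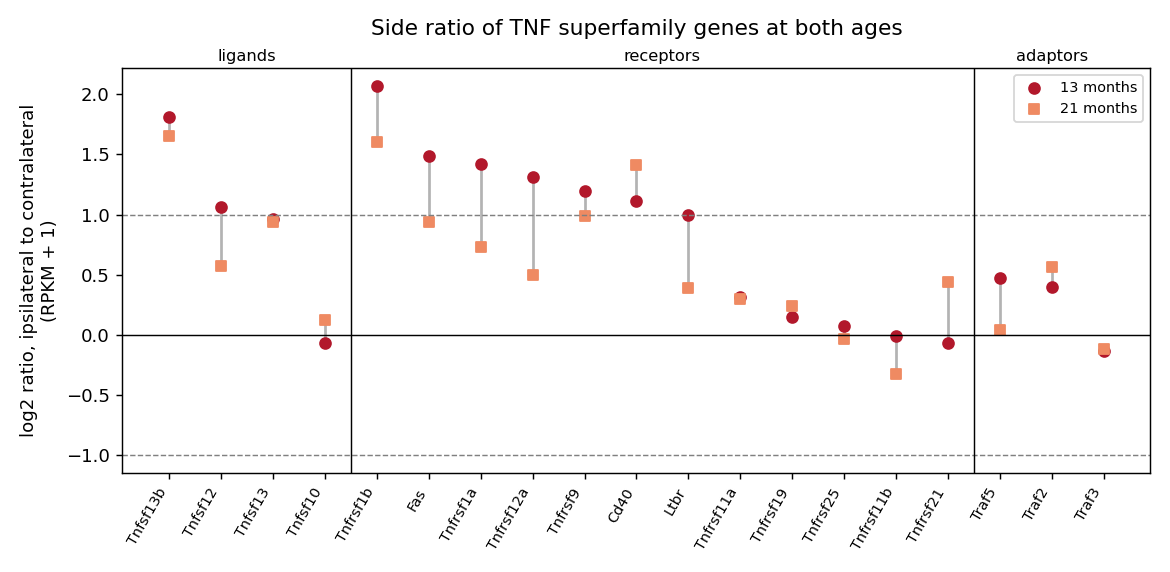
Log2 side ratio, ipsilateral to contralateral after adding 1 RPKM, of the same 19 members at 13 months (circles) and 21 months (squares), each point from 1 pair of libraries, with dashed lines at 2-fold. Tnfrsf1b (2.07 and 1.60) and Tnfsf13b (1.81 and 1.65) lie highest, the square lies under the circle for most of the high genes, and Tnfrsf11b, Tnfrsf21, Tnfrsf25 and Traf3 lie between -0.33 and 0.44.

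The remaining 5 receptors above the filter had side ratios between -0.33 and 0.44 and did not pass in limma. Tnfrsf11b encodes osteoprotegerin, a soluble decoy receptor for RANK ligand and TRAIL. The gene had 8.07 RPKM ipsilaterally and 8.11 RPKM contralaterally at 13 months, and 5.23 RPKM ipsilaterally and 6.84 RPKM contralaterally at 21 months. The sides were nearly equal at 13 months, and the ipsilateral library was the lowest at 21 months, with the lowest side ratio of any of the 19 members (-0.33; adjusted p = 0.62 in limma over both ages). Tnfrsf11a, the gene of RANK itself, had 4.44 and 5.18 RPKM ipsilaterally and 3.39 and 4.01 RPKM contralaterally (13 months before 21 months; adjusted p = 0.3 in limma).

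Tnfrsf21 encodes death receptor 6, known from neurons and oligodendrocytes. Its level was 8.59 RPKM ipsilaterally and 9.09 RPKM contralaterally at 13 months, and 11.3 RPKM ipsilaterally and 8.10 RPKM contralaterally at 21 months. The 21 month ipsilateral library stood above the other three, and the side ratio was larger by 0.51 at 21 than at 13 months, the largest increase among the 19 members. Oligodendrocyte markers were highest in that library as well, with 5 genes summing to 1740 and 2390 RPKM ipsilaterally and to 2130 and 2030 RPKM contralaterally (13 months before 21 months); their part in the result was not tested.

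Tnfrsf19 (TROY), a family receptor of the nervous system, had 6.51 and 6.85 RPKM ipsilaterally and 5.78 and 5.67 RPKM contralaterally (adjusted p = 0.56 in limma). Tnfrsf25, which encodes death receptor 3, was between 0.92 and 1.18 RPKM in all libraries. Its ligand gene Tnfsf15 was between 0.20 and 0.29 RPKM. The sides overlapped for Tnfrsf25, whereas Tnfrsf19 was slightly higher and Tnfsf15 slightly lower in both ipsilateral libraries than in either contralateral one.

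Of the TRAF adaptors, Traf2 and Traf3 were the most abundant and had opposite signs of the side ratio. Traf2, which binds TNF receptor 2 directly and TNF receptor 1 through TRADD, was at 7.18 RPKM ipsilaterally and 5.20 RPKM contralaterally at 13 months, and at 7.90 RPKM ipsilaterally and 5.04 RPKM contralaterally at 21 months. Both ipsilateral values lay above both contralateral ones, with a log2 change of 0.48 ± 0.17 (SE), which did not pass (adjusted p = 0.068 in limma). Traf3, which restrains the non-canonical NF-kB pathway, was at 5.91 and 5.40 RPKM ipsilaterally and at 6.61 and 5.96 RPKM contralaterally (adjusted p = 0.71 in limma).

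Traf5 had 1.82 RPKM ipsilaterally and 1.04 RPKM contralaterally at 13 months, and 1.21 RPKM ipsilaterally and 1.15 RPKM contralaterally at 21 months (adjusted p = 0.43 in limma). Traf1, itself induced by NF-kB, had 1.0 and 0.67 RPKM ipsilaterally and 0.28 and 0.49 RPKM contralaterally. Traf6, the adaptor shared with Toll-like and interleukin 1 receptors, had 0.87 and 0.72 RPKM ipsilaterally and 0.65 and 0.54 RPKM contralaterally. Traf1 and Traf6 were under the filter and were not tested.

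The other members were rare. The 23 members with a mean under 1 RPKM were 10 ligands, 11 receptors and 2 adaptors, and 5 of their 92 values were 0. Of these 23, 15 were higher ipsilaterally at both ages by any amount, while 27.0% of all 5693 genes under the filter were higher at both. Lower at both were 2, Tnfsf15 and Edar, and the share of all genes under the filter that were lower at both is not given here. Single values at this level may rest on few reads, and no member of this group was tested. Of the 19 members above the filter, 14 were higher at both ages by any amount, against 38.4% of all genes tested, and 2 (Tnfrsf11b and Traf3) were lower at both, against 26.5%.

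Tnfrsf14, the gene of the herpesvirus entry mediator HVEM, was just under the filter with a mean of 0.905 RPKM. It had 2.28 RPKM ipsilaterally and 0.12 RPKM contralaterally at 13 months, and 1.12 RPKM ipsilaterally and 0.10 RPKM contralaterally at 21 months. Side ratios were 1.55 and 0.95, so that it would be the 9th member past 1 at 13 months with no filter. Its ligand gene Tnfsf14, encoding LIGHT, which also binds the lymphotoxin beta receptor, was at 0.58 and 0.50 RPKM ipsilaterally and at 0.04 RPKM in both contralateral libraries.

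Unlike Tnfrsf9, the costimulatory receptor genes Tnfrsf4, Tnfrsf18, Tnfrsf8 and Cd27 and their ligand genes were under 1 RPKM in all libraries. Tnfrsf4 (OX40) had 0.60 and 0.32 RPKM ipsilaterally and 0.21 and 0.18 RPKM contralaterally, and its ligand gene Tnfsf4 had 0.45 and 0.60 RPKM ipsilaterally and 0.22 and 0.24 RPKM contralaterally. Tnfrsf18 (GITR) had 0.33 and 0.22 RPKM ipsilaterally and 0.01 and 0.05 RPKM contralaterally. Its ligand gene Tnfsf18 was at most 0.13 RPKM and was listed at 0 in both contralateral libraries. Tnfrsf8 (CD30) reached 0.25 RPKM at most and its ligand gene Tnfsf8 0.24 RPKM. Cd70, the ligand of CD27, reached 0.36 RPKM in the 21 month ipsilateral library and was listed at 0 in the 13 month one. Tnfrsf26 had 0.89 and 0.52 RPKM ipsilaterally and 0.32 and 0.22 RPKM contralaterally. The ectodysplasin pair of skin appendage development, Eda and Edar, lay between 0.14 and 0.37 RPKM.

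**Figure D3:**
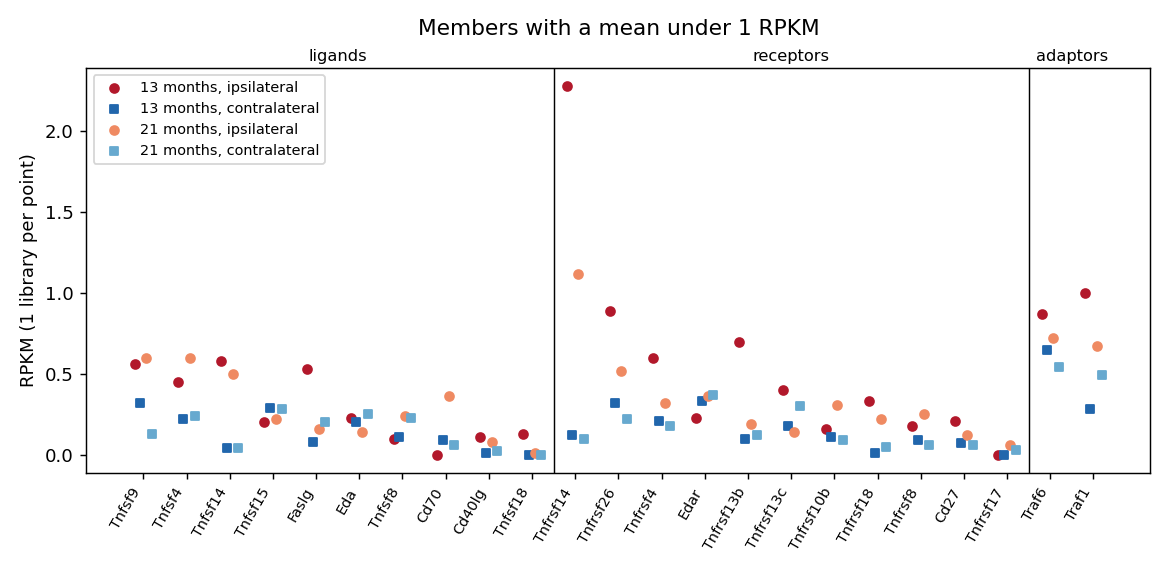
RPKM of the 23 members with a mean under 1 RPKM, 1 point per library (circles ipsilateral, squares contralateral), grouped into ligands, receptors and adaptors. Tnfrsf14 stands out with 2.28 RPKM at 13 months and 1.12 RPKM at 21 months on the ipsilateral side, and nearly all other points lie under 1 RPKM.

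Some members lie side by side in the genome. In the RefSeq annotation 7 pairs of members have no protein-coding gene between them. Tnfsf13 and Tnfsf12 both rose, whereas Tnfrsf1b rose and its neighbour Tnfrsf8 was at most 0.25 RPKM. The other 5 adjacent pairs (Tnfsf4 with Tnfsf18, Tnfsf18 with Faslg, Tnfsf15 with Tnfsf8, Tnfrsf4 with Tnfrsf18, and Cd70 with Tnfsf14) consisted of members under 1 RPKM on average.

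Promoter sequences are shown for 4 members that rose: the highest receptor and ligand by side ratio, a death receptor gene (Fas) and the gene whose side ratio differed most between ages. RefSeq promoters (GRCr8, 250 bases before to 50 after the gene start, 5′ to 3′ on the gene's strand) were matched for 31 of the 42 members, 8 of them among the 10 that rose. Capitals mark matches, on either strand, to an AP-1 site (TGANTCA), the core of a PU.1 site (GAGGAA) or a GC box (GGGCGG); neighbouring and overlapping matches run together.
Tnfrsf1b, chr5:162387362-162387661, minus strand: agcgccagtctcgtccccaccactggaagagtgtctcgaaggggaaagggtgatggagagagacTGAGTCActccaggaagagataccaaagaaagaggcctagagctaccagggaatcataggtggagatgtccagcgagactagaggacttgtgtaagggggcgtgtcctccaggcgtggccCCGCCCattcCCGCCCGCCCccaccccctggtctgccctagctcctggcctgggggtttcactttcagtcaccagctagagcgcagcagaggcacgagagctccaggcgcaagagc
Tnfsf13b, chr16:86194450-86194749, minus strand: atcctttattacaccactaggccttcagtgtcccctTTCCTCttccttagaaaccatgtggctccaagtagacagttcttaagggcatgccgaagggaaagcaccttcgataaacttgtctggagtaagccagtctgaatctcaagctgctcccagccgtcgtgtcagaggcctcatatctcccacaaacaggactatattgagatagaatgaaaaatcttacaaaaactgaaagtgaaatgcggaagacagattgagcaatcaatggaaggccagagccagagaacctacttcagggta
Fas, chr1:241211905-241212204, plus strand: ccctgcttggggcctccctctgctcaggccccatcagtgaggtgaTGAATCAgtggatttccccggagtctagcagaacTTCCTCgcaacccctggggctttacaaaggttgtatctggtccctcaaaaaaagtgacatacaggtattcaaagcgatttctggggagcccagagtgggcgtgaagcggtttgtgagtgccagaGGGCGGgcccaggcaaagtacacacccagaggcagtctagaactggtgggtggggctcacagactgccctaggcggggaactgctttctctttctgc
Tnfrsf12a, chr10:13213599-13213898, minus strand: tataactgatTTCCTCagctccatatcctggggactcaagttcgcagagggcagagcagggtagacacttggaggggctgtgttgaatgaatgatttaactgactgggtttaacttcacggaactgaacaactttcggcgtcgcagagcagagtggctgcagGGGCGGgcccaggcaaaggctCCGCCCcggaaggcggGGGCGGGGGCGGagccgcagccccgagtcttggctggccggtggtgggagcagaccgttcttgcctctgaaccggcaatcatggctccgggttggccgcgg

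The 4 promoters differed in composition, from 5 CpG and 45.7% G or C in Tnfsf13b and 7 CpG and 56.7% in Fas to 12 CpG and 61.0% in Tnfrsf1b and 19 CpG and 61.3% in Tnfrsf12a, beside medians of 7 CpG and 51.7% over all 33469 promoters of the table. The PU.1 core was present in 14 of the 31 member promoters and in 5 of the 8 that rose, against 27.6% of all promoters. An AP-1 match was present in 4 of 31 and in 2 of the 8 (Fas and Tnfrsf1b), against 7.33%, and a GC box in 18 of 31 and in 5 of the 8, against 33.1%. Tnfrsf1a, the other death receptor gene that rose, had none of these matches in its promoter window. These are matches of letters in a short window, and no binding was measured.

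The ages were set against each other on each side to ask how the members differed between old and adult rats. None of the 19 members differed by a factor of 2 between the ages once 1 RPKM was added; in RPKM itself the contralateral level of Tnfsf13b did, with 0.35 RPKM at 21 months and 0.74 RPKM at 13 months. Of the 19 members 0 had an age ratio (21 minus 13 months, log2) of at least 1 ipsilaterally and 0 of at most -1, against 0.321% and 0.658% of all genes tested. Contralaterally the counts were also 0 and 0, against 0.206% and 0.132%. The median age ratio was -0.30 ipsilaterally and -0.06 contralaterally, beside 0.03 and -0.03 over all genes tested. These comparisons share their libraries with the side comparisons.

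All 10 members that rose on the bleeding side were lower in the ipsilateral library of 21 months than in that of 13 months, with Tnfrsf12a (-0.75), Tnfrsf1b (-0.62) and Ltbr (-0.57) lowest and Cd40 (-0.06) nearest to 0. Among all 1618 genes that rose in limma, 72.1% were lower ipsilaterally at 21 months as well, so the members followed the direction of most such genes. The age-by-side difference (side ratio at 21 minus that at 13 months) was negative for 13 of the 19 members and positive for 6, with a median of -0.16. Over all genes tested it was negative for 44.3%, with a median of 0.05. It was at least 1 for 0 members and at most -1 for 0, against 0.650% and 0.757% of all genes tested. Among the 10 that rose it was negative for 9, against 67.7% of the 1618.

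Enzymes that release TNF family proteins from the cell surface were described next. Of 5 genes of ectodomain shedding 2 rose in limma and 0 fell, where 13.3% of all genes tested rose, with median side ratios of 0.58 at 13 months and 0.51 at 21 months. Adam17, the main protease for TNF and both TNF receptors, was at 22.8 RPKM ipsilaterally and 7.90 RPKM contralaterally at 13 months, and at 15.0 RPKM ipsilaterally and 7.85 RPKM contralaterally at 21 months (adjusted p = 6.2e-05 in limma). Rhbdf2, which encodes iRhom2, the partner that brings ADAM17 to the surface of myeloid cells, was at 3.23 and 2.57 RPKM ipsilaterally and at 0.66 and 0.64 RPKM contralaterally (adjusted p = 1.1e-05 in limma). Adam10 (28.9 and 21.0 RPKM ipsilaterally, 19.0 and 19.4 RPKM contralaterally) did not pass (adjusted p = 0.26 in limma). Both genes that rose were higher in both ipsilateral libraries than in either contralateral one. The same held for Adam10 and Rhbdf1, which did not pass, so this separation did not set apart the genes that rose. The share of all genes separated in this way is not given, here or for the members above.

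Of 22 tested genes for death domain adaptors, caspase regulators and ubiquitin enzymes of the receptor complexes 10 rose and 0 fell, beside the same 13.3% over all genes, with median side ratios of 0.53 and 0.50. The highest were Birc3 (cIAP2, an inhibitor of apoptosis that ubiquitinates RIPK1), which rose by 2.08 ± 0.18, Ripk3 (the necroptosis kinase), which rose by 1.94 ± 0.18, and Tnfaip3 (A20, a feedback inhibitor of NF-kB), which rose by 1.57 ± 0.17 (log2, SE, limma). Birc3 was listed at 11.2 and 6.77 RPKM ipsilaterally and at 1.35 and 1.27 RPKM contralaterally, 13 months before 21 months. Casp8 (1.25), Tnip1 (0.93), Tradd (0.87), Ripk1 (0.86), Otulin (0.76), Birc2 (0.62) and Fadd (0.54) rose too, Fadd with an adjusted p of 0.042 in limma. Birc2 and Fadd missed the threshold after rescaling without mitochondrially encoded genes (adjusted p = 0.055 and 0.1 in limma) and without the age term (0.11 and 0.077). The lowest fitted changes were those of Cyld (-0.12), Sharpin (-0.09) and Tab3 (-0.01), none of which passed. The caspase 8 inhibitor gene Cflar had 0.45 ± 0.17 (adjusted p = 0.099 in limma).

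Of 16 genes for NF-kB subunits, inhibitors and kinases 10 rose and 0 fell, again beside 13.3%, with median side ratios of 0.90 and 0.70. Nfkbiz (1.78), Nfkb2 (1.71) and Bcl3 (1.66) had the highest fitted changes, followed by Nfkbia (1.51), which encodes the inhibitor IkB alpha and is itself induced by NF-kB. Nfkbia was listed at 77.6 and 49.7 RPKM ipsilaterally and at 20.1 and 22.2 RPKM contralaterally. Relb (1.41), the partner of the Nfkb2 product in the non-canonical pathway, Ikbke (1.12), Nfkb1 (0.98), Nfkbie (0.90), Rel (0.63) and Ikbkg (0.57) also rose. Ikbkg missed the threshold after the same rescaling (adjusted p = 0.074 in limma), and Ikbke (0.083) and Ikbkg (0.066) did without the age term. Rela (0.49, adjusted p = 0.06 in limma) and the non-canonical kinase gene Map3k14 (0.21, adjusted p = 0.51 in limma) did not pass, and Tbk1 (0.13), Map3k14 and Chuk (0.22) were the lowest.

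Genes that NF-kB is known to induce had the highest medians of these lists, 1.94 at 13 months and 1.45 at 21 months, and 8 of 9 tested rose, against 13.3% of all genes. Cxcl2 (4.35), Ccl2 (3.77), Cxcl1 (2.78) and Ccl20 (1.97), all chemokine genes, led, Sod2 (1.52), the gene of mitochondrial superoxide dismutase, rose, and the adhesion genes Icam1 (1.61), Sele (0.82) and Vcam1 (0.66) rose as well, Sele with an adjusted p of 0.0033 in limma, but 0.16 without the age term. Ptgs2 (0.07), the gene of cyclooxygenase 2, was the 1 gene that did not pass (adjusted p = 0.85 in limma). Of the family receptors outside the symbol choice 0 of 3 tested passed in limma, 1 by unadjusted p under 0.05 (Relt 0.39, Rell1 0.30 and Rell2 -0.22), and Ngfr, the p75 neurotrophin receptor gene, was at 1.21 RPKM in both ipsilateral libraries and at 0.77 and 0.71 RPKM contralaterally. In each of the 5 partner lists, 0 genes were lower by unadjusted p under 0.05 in limma, again without a share of all genes beside it. With no filter on low values 0 genes of these lists passed, as for all genes. Of the partner genes that rose, Cxcl2, Ccl20, Sele, Bcl3, Ikbke, Rel, Tradd and Rhbdf2 averaged under 1 RPKM contralaterally. They passed the filter only through the ipsilateral side, so the filter favoured their calls.

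**Figure D4:**
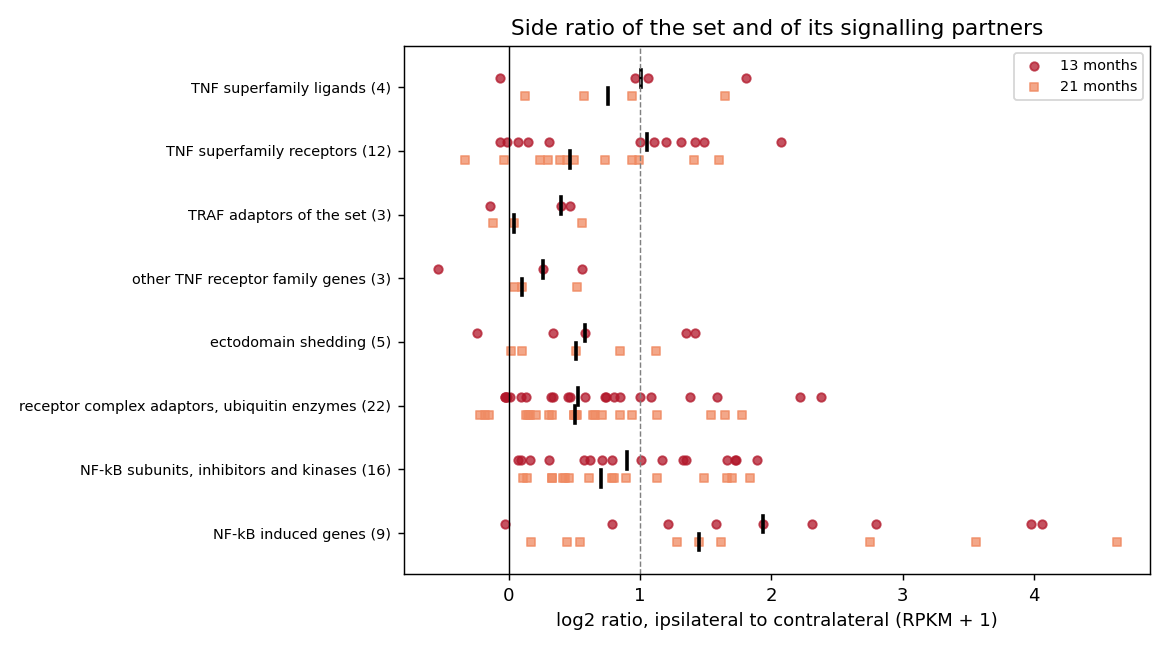
Log2 side ratio, ipsilateral to contralateral after adding 1 RPKM, at 13 months (circles) and 21 months (squares) for the tested ligands, receptors and adaptors of the family and for the tested genes of 5 partner lists, each point 1 gene, black bars medians and numbers in parentheses the genes tested. Medians run from 0.04 (TRAF adaptors, 21 months) to 1.94 (NF-kB induced genes, 13 months).

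Markers of leukocytes and microglia were also higher in the ipsilateral libraries. Of 6 tested genes of blood monocytes and macrophages 5 rose in limma, against 13.3% of all genes tested, as for the counts that follow. The 5 were Cd68 (3.76), Cd14 (3.48), Msr1 (3.47), Fcgr1a (2.41) and Mrc1 (2.13), while Cd163 (0.50) did not pass (adjusted p = 0.065 in limma). The 7 genes of that list in the table summed to 124 and 83.9 RPKM ipsilaterally and to 9.06 and 8.21 RPKM contralaterally (13 months before 21 months). Ccr2 of that list was at most 0.67 RPKM and was listed at 0 in the 21 month contralateral library. Of 5 microglia markers 3 rose (Aif1, Csf1r and Cx3cr1, but not Tmem119 or Sall1), and the list summed to 163 and 121 RPKM ipsilaterally and to 50.8 and 45.6 RPKM contralaterally. The 7 markers of T and NK cells summed to 42.1 and 29.5 RPKM ipsilaterally and to 6.82 and 6.89 RPKM contralaterally, and 2 of 2 tested rose, Cd8a and Cd4, the second of which rat macrophages also carry. Cd3e, Cd3d, Cd3g, Klrk1 and Nkg7 were under 1 RPKM on average. Cd8a and, of the macrophage list, Msr1 were under 1 RPKM in both contralateral libraries. Both passed the filter only through the ipsilateral side, so the filter favoured their calls. Both tested neutrophil markers, S100a8 and S100a9, rose, and the list summed to 52.4 and 30.0 RPKM ipsilaterally and to 3.44 and 7.46 RPKM contralaterally, nearly all of it from those genes, while Cxcr2 was at most 0.38 RPKM.

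The other marker lists gave mixed counts, where 13.3% of all genes tested rose and 0.814% fell in limma. The share of all genes by unadjusted p is not given for this fit. Of 6 astrocyte markers 1 rose (Gfap, by 1.61), of 5 oligodendrocyte markers 0 passed (0 also by unadjusted p in limma), of 3 endothelial markers 0 passed (1 by unadjusted p in limma), with endothelial sums of 20.8 and 17.4 RPKM ipsilaterally and 19.0 and 18.7 RPKM contralaterally, and of 7 neuronal markers 1 fell (Nefm; 3 were lower by unadjusted p in limma). Of 5 choroid plexus markers 4 fell (Ttr, Clic6, Kl and Tmem72), of 3 erythroid markers 1 fell (Hba2) and of 2 pineal markers 2 fell (Tph1 and Gngt1), both high in the 13 month contralateral library alone, while the platelet marker Pf4, which macrophages can also make, rose and 0 of 2 pituitary markers passed (0 also by unadjusted p in limma). The part of these cell types in the side ratios of the members was not tested. The summed level of all 42 members was 143 and 115 RPKM ipsilaterally and 77.1 and 74.4 RPKM contralaterally.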

How the data were processed

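Polyadenylated RNA was sequenced in 4 libraries, 1 per side and age. Per the labels' protocols, total RNA of 9 rat brains was pooled in equal amounts; whether this was done per library is not stated. The authors deposited RPKM values rounded to 2 decimals. Per the submitters' processing notes, cutadapt, TopHat2 and edgeR were used, and GRCh38, a human build, is named, although the identifiers are rat ones, so the build is not settled; how reads were counted, and over which gene lengths, is not stated. The lowest value above 0 was 0.01 RPKM, the rounding step, in every library, so whole reads could not be recovered and the depth is unknown.

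From these values log2(RPKM + 1) was computed where a gene averaged 1 RPKM or more. Single libraries were compared as log2 ratios with no test, counting ratios of at least 1 in size. limma 3.58.1 in R 4.3.3 modelled side together with age (additive, eBayes, two-sided, Benjamini-Hochberg over all 12160 genes). The eBayes step drew each gene's variance mostly from all genes tested (prior degrees of freedom 19.5, residual 1). SE and p-values thus measure neither a gene's own spread nor the spread between animals. The script was tested on simulated data. Of 142 entries of 5 pathway and 14 marker lists 134 matched a symbol; 8 were not used here, and the entry with the highest mean stood for a repeated symbol.

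Values in every library were given for members past 1 or called by limma, for those with the lowest or most age-dependent ratios, for the most abundant and for their partners; list genes were named if called by limma, and for the larger partner lists the highest and lowest too. Members, lists and motifs were chosen with earlier results of these data known; patterns for NF-kB sites were also searched and are not reported here. Alternatives were a pseudocount of 0.1, no filter, an average of 5 RPKM or more, median-ratio scaling, rescaling without mitochondrially encoded genes (by their share of the RPKM sum), an intensity trend and no age term in limma, and a contralateral mean of at least 1 RPKM; this filter was chosen after the data were seen.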

Additional observations from a re-analysis of the deposited data

Results flagged for a closer look

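With 1 library per group, a result was singled out when its effect had opposite signs in the sides or ages; the differences were not tested, and most are small. The side ratio changed sign between 13 and 21 months for Tnfrsf21 (-0.07 and 0.44, a difference of 0.51), Tnfsf10 (-0.07 and 0.12, a difference of 0.19) and Tnfrsf25 (0.07 and -0.04, a difference of -0.12). The age ratio (21 minus 13 months) was negative ipsilaterally and positive contralaterally for 5 members, with differences of -0.81 for Tnfrsf12a, -0.69 for Tnfrsf1a, -0.61 for Ltbr, -0.54 for Fas and -0.43 for Traf5. It was positive ipsilaterally and negative contralaterally for Tnfrsf21 (0.51), Traf2 (0.16) and Tnfrsf19 (0.09).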

How the results depend on the processing

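No called member changed direction under any alternative. At 13 months 8 members were past 1. The counts were 2 where an average of 5 RPKM was required (6.16% of all genes) and 3 with a contralateral mean of at least 1 RPKM (5.42%). They were 10 with a pseudocount of 0.1 RPKM (9.05%) and 7 after rescaling without mitochondrially encoded genes (6.51%), where Tnfsf12 was at 0.99. At 21 months the count of 3 became 6 with a pseudocount of 0.1 RPKM (7.77% of all genes). It was 0 under the filter of 5 RPKM and under that of a contralateral mean of at least 1 RPKM. In limma 10 members rose; 4 did where 5 RPKM was required (10.5% of all genes), 5 with a contralateral mean of at least 1 RPKM (10.9%) and 0 with no filter on low values (0 of all 17853 genes), where adjusted p-values of the 10 ran from 0.087 to 0.27. The stricter filters tested fewer members, 9 and 14; the cause of the loss without a filter was not tested. Without the age term 7 of the 10 members passed (9.79% of all genes). Tnfsf12 (adjusted p = 0.066 in limma), Tnfrsf12a (0.09) and Ltbr (0.11) missed the threshold, as did 5 partner genes. After rescaling without mitochondrially encoded genes 9 of the 10 members passed (10.7% of all genes). There Ltbr (adjusted p = 0.051 in limma) and 3 partner genes missed the threshold. In the partner lists, no filter left 0 of the 30 genes that rose. Requiring 5 RPKM left 3 of 10 NF-kB genes, 4 of 10 receptor complex genes and 1 of 2 shedding genes. A contralateral mean of at least 1 RPKM left 5 of 8 NF-kB induced genes, 7 of 10 NF-kB genes, 9 of 10 receptor complex genes and 1 of 2 shedding genes. The partner genes lost under these stricter filters were under the filter and not tested, and none that was tested missed the threshold. Median-ratio scaling and the intensity trend changed no call of a member, and no scaling moved the median side ratio of all genes by over 0.1. The age term of the limma fit pairs the libraries by age. No paired analysis by replicate number was possible because the labels give none. Leaving out a library would leave limma no residual, so it was not run. Members under 1 RPKM are limited by an unknown depth.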
